A study of Mus musculus with 6 samples.

Results

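RNA polymerase I is the nuclear enzyme that transcribes the ribosomal RNA genes, and its machinery is described here by the mRNA levels of 10 genes in mouse 2-cell embryos given arsenite. The genes were taken by name (Polr1a, Polr1b, Polr1c, Polr1d, Polr1e, Ubtf, Rrn3, Taf1b, Taf1c and Taf1d), and are 10 of 18649 named rows of a table of read counts. All 10 were present, and all 10 passed the filter on low counts that left 12582 genes to test. The study holds 3 libraries of poly(A) RNA from embryos kept in G1-PLUS medium to which sodium arsenite, a salt of trivalent arsenic, was added at 5 µM, and 3 control libraries labelled 0 µM. The comparison asks how arsenite alters RNA levels at the stage when the embryo's own genome takes over from stored maternal RNA. The labels give no strain, allele, number of embryos or length of exposure, and do not say whether replicates were separate cultures. Library totals were 7754037 to 8384712 counts with arsenite and 7827004 to 8515078 in controls.

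All 6 markers of the 2-cell stage on a list of Zscan4c, Zscan4d, Zfp352, Usp17lc, Tcstv1 and Tcstv3 were detected, with summed levels of 1089 to 2525 CPM with arsenite and 543 to 718 CPM in controls. CPM are counts scaled to a common library total, with TMM factors. The 6 oocyte markers Gdf9, Bmp15, Zp3, Oosp1, Nlrp5 and Padi6 summed to 2231 to 3106 CPM with arsenite and 557 to 1253 CPM in controls, so both marker sums were higher in every arsenite library than in any control. Bmp15 gave the largest part of the oocyte sum in each arsenite library, and the members went both ways, with Gdf9, Bmp15 and Nlrp5 called higher and Zp3 at 56.2, 39.9 and 63.1 CPM with arsenite against 76.9, 80.4 and 102.1 CPM in controls (not called). Of 12 cumulus and granulosa cell markers 8 were in the table, and they summed to 32.4 to 49.6 CPM with arsenite and 38.9 to 40.0 CPM in controls, mostly from Amhr2. Of these 8, Cyp11a1 had 16, 23 and 23 counts in arsenite replicates 1, 2 and 3 and 0 in each control, and it was the single one called, as higher. Tnfaip6 had 23, 46 and 17 counts with arsenite and 0, 1 and 10 counts in controls, and Cyp19a1 had 46, 39 and 9 counts with arsenite and 14, 0 and 1 counts in controls. Foxl2 had 0 to 7 counts with arsenite and 0 to 16 in controls, Star 5 to 29 with arsenite and 5 to 45 in controls, Ptgs2 1 to 3 with arsenite and 0 to 4 in controls, and Has2 0 with arsenite and at most 3 in a control. The part of these markers in the values that follow was not tested. In bulk RNA of this kind, fewer cells of a type and less RNA per cell cannot be told apart.

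In the nucleolus, UBTF, encoded by Ubtf, coats the ribosomal RNA genes, and the selectivity factor SL1, a complex of the TATA-binding protein with TAF1 subunits, marks their promoter. RRN3 then bridges the polymerase to SL1, which makes it a main point at which growth and stress signals act on ribosomal RNA synthesis. The enzyme itself has a large 2-chain catalytic core, an assembly pair shared with RNA polymerase III, small subunits shared with all nuclear polymerases, and a few subunits of its own. In mouse embryos ribosomal RNA synthesis starts again around the 2-cell stage, in nucleolar precursor bodies left from the oocyte.

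With arsenite, 5 of the 10 genes fell and 0 rose (quasi-likelihood F-test of edgeR, p adjusted by Benjamini-Hochberg under 0.05). Those that fell were Polr1a, Polr1c and Polr1e of the enzyme and the factor genes Ubtf and Rrn3, at 0.308 to 0.492 times their control level. Among all tested genes 7.26% were called lower and 9.43% higher. For 7 of the 10 genes each arsenite library lay below each control, as was the case for 19.7% of all tested genes, and for 0 of the 10 each lay above, against 21.9% of all tested genes. The log2 fold change was negative for all 10 genes, beside 6016 of the 12582 tested genes. Its median was −1.07 over the 10 genes, against 0.07 over all tested genes. Summed over the 10 genes, the level was 999.7, 945 and 1387 CPM in arsenite replicates 1, 2 and 3 and 2071, 2235 and 2101 CPM in control replicates 1, 2 and 3. Every arsenite sum was therefore lower than every control sum, and Rrn3 was the largest single contributor in each library but arsenite replicate 3, where it was Polr1d.

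**Figure D1:**
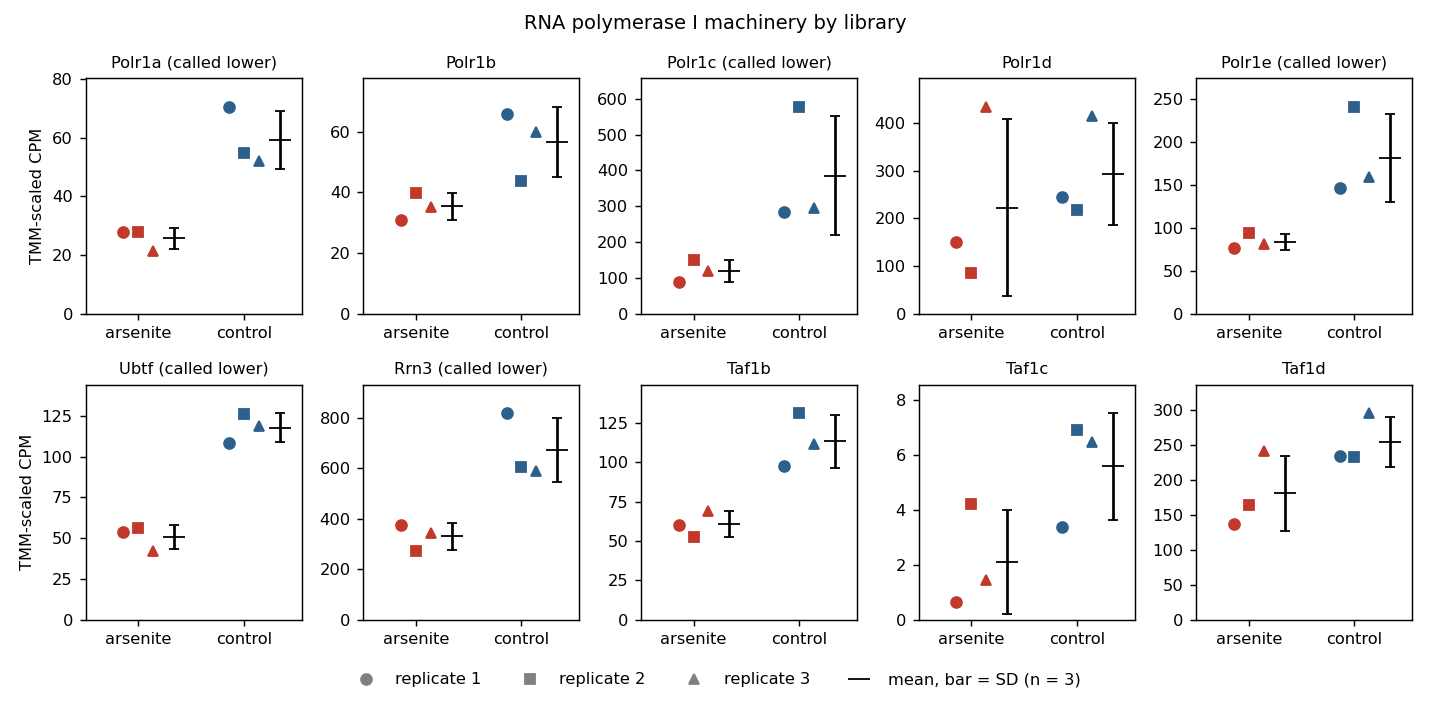
Levels of the 10 genes in TMM-scaled CPM (y axes, linear, from 0) in the 3 arsenite libraries and the 3 control libraries; symbols mark the replicate number and black bars the mean and SD of 3 libraries. Arsenite libraries lie below all controls for Polr1a, Polr1b, Polr1c, Polr1e, Ubtf, Rrn3 and Taf1b, and the groups overlap for Polr1d, Taf1c and Taf1d.

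The catalytic core was lower in its largest subunit. Polr1a (chromosome 6, 71909053 to 71979435, GRCm38.p6), which encodes the chain that carries most of the active site, had 27.7, 27.8 and 21.5 CPM in arsenite replicates 1, 2 and 3 and 70.3, 54.8 and 52.0 CPM in control replicates 1, 2 and 3. Its 3 arsenite values lay close together and well below the lowest control, and it fell by 1.20 ± 0.32 log2 units (SE, adjusted p by edgeR = 0.0312). Polr1b (chromosome 2, 129100970 to 129128060), the second chain of the core, had 31.0, 39.8 and 35.2 CPM with arsenite and 66.0, 43.9 and 60.0 CPM in controls. The groups did not overlap, although control replicate 2 came near the arsenite values, and the log2 fold change of −0.68 (95% interval −1.38 to 0.03) did not pass (edgeR, adjusted p = 0.161). Polr1e (chromosome 4, 45018609 to 45034279), a subunit of its own to this polymerase that forms a pair with the product of Cd3eap, had 76.3, 93.5 and 80.9 CPM with arsenite and 146, 240.3 and 159 CPM in controls. It fell by 1.12 ± 0.30 log2 units (SE, adjusted p by edgeR = 0.031), and control replicate 2 was its highest library.

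The 2 subunits of the assembly pair, which RNA polymerases I and III share, had unlike profiles. Polr1c (chromosome 17, 46243920 to 46248045) had 87.5, 149.7 and 119 CPM in arsenite replicates 1, 2 and 3 and 283, 576 and 295 CPM in control replicates 1, 2 and 3. Its fall of 1.70 ± 0.36 log2 units (SE, adjusted p by edgeR = 0.0141) was the largest among the 5 genes called, and 6.42% of all tested genes had a change as low or lower. Polr1d (chromosome 5, 147076715 to 147111361), whose product binds that of Polr1c, had 149.7, 85.1 and 434 CPM with arsenite and 246, 217 and 415 CPM in controls. Here arsenite replicate 3 was the highest of the 6 libraries and the groups overlapped. The log2 fold change of Polr1d was −0.39 (95% interval −1.54 to 0.75, edgeR, adjusted p = 0.628), an interval that holds both a fall like that of Polr1e and a rise, and without arsenite replicate 3 it was −1.32 (edgeR, adjusted p = 0.0645). The ratio of Polr1c to Polr1d counts was 0.585, 1.76 and 0.273 with arsenite and 1.15, 2.65 and 0.709 in controls, a description chosen after the values were seen.

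The genes of the factors UBTF and RRN3 fell. Ubtf (chromosome 11, 102304560 to 102323649), which encodes the HMG-box protein UBTF, had 53.7, 56.2 and 42.1 CPM with arsenite and 108, 126 and 119 CPM in controls. The control libraries of Ubtf differed less among themselves than those of any other of the 10 genes, with an SD of 0.11 on the log2 scale, and the fall was 1.21 ± 0.29 (SE, adjusted p by edgeR = 0.0202). Rrn3 (chromosome 16, 13780699 to 13814841), which encodes the bridging factor also called TIF-IA, had 375, 272 and 343 CPM with arsenite and 817, 607 and 588 CPM in controls. No arsenite library of Rrn3 reached the lowest control, and it fell by 1.02 ± 0.29 log2 units (SE, adjusted p by edgeR = 0.0353).

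The 3 SL1 subunits among the 10 genes did not pass the test. Taf1b (chromosome 12, 24498581 to 24558571), a subunit that resembles the general factor TFIIB, had 60.4, 52.6 and 69.1 CPM with arsenite and 97.6, 131 and 112 CPM in controls. Its groups did not overlap, and its log2 fold change of −0.90 ± 0.29 (SE) had an edgeR adjusted p of 0.0547. With the replicate number as a block, Taf1b was called lower (edgeR, adjusted p = 0.0374). Taf1c (chromosome 8, 119597974 to 119605206), another SL1 subunit, was the least abundant of the 10 genes, with 5, 37 and 10 counts in arsenite replicates 1, 2 and 3 and 28, 62 and 53 counts in control replicates 1, 2 and 3. At this depth its groups overlapped and its log2 fold change of −1.39 had a 95% interval of −3.25 to 0.46 (edgeR, adjusted p = 0.267). Exons of Dnaaf1 on the opposite strand cover 16.7% of the exon length of Taf1c. The strand setting of the counting is not stated, so reads of both genes in that part cannot be told apart. Taf1d (chromosome 9, 15305953 to 15316997), which hosts small nucleolar RNAs, had 138, 164 and 241 CPM with arsenite and 234, 233 and 295 CPM in controls. Arsenite replicate 3 lay within the control range, and the log2 fold change was −0.49 (95% interval −1.15 to 0.17, edgeR, adjusted p = 0.275).

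**Figure D2:**
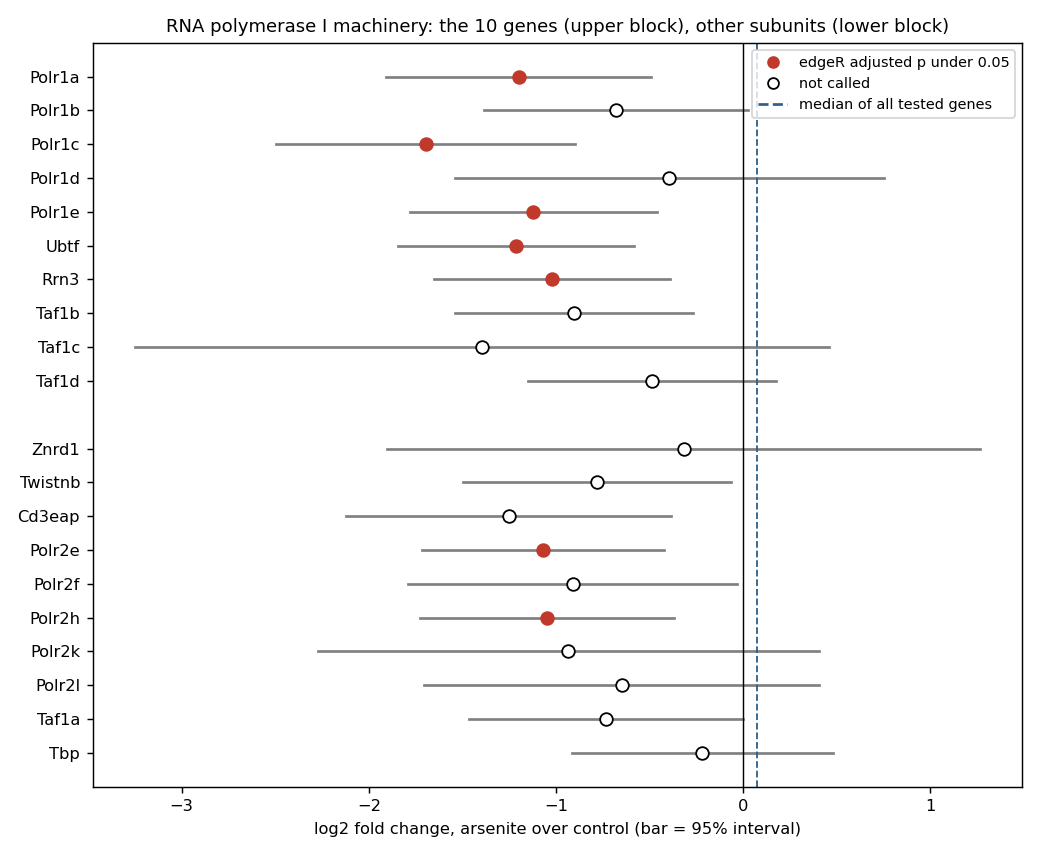
Log2 fold change of arsenite over control (x axis) with its 95% interval from the edgeR fit, for the 10 genes (upper block) and 10 other subunits of RNA polymerase I and SL1 (lower block); filled red points have an adjusted p under 0.05. All 20 points lie below 0, with 5 called in the upper block and 2 in the lower.

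In the alternatives that kept all 6 libraries, 5 or 6 of the 10 genes were called lower and 0 higher, the sixth being Taf1b. Of all tested genes 7.99% were called lower with size factors of the DESeq2 type, 8.5% with library size alone, 7.57% with TMM factors set without the 20 most abundant genes, 5.54% with no filter, 7.82% with a minimum of 50 summed counts, 12.5% by DESeq2, 8.63% by limma-voom and 12.6% with the replicate number as a block. At an unadjusted p under 0.05 none of the 10 was higher in any of these fits, by edgeR, DESeq2 or limma-voom, where 14.6% to 20.6% of all tested genes were.

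With 3 libraries a group, leaving out 1 library moved the number of the 10 genes called lower by over 1.5 times, except for arsenite replicate 2. Without control replicates 1, 2 and 3 in turn 3, 2 and 1 of them were called lower by edgeR, beside 3.05%, 3.57% and 1.41% of all tested genes. Dropping arsenite replicates 1, 2 and 3 one at a time, 0, 4 and 2 were called, beside 1.35%, 8.16% and 4.82% of all genes, and at an unadjusted p under 0.05 the fit without arsenite replicate 1 had 6, beside 11.8% of all genes. Over these 6 fits 11.8% to 18.4% of all tested genes were lower at that unadjusted threshold. Polr1c lost its call only without arsenite replicate 1 (edgeR, adjusted p = 0.0731), and Ubtf without that library or control replicate 3 (0.0735 and 0.0704). Polr1a lost its call in each of these 6 fits except that without arsenite replicate 2, Polr1e in those without control replicates 2 or 3 or arsenite replicates 1 or 3, and Rrn3 in all 6, and the highest adjusted p by edgeR in those fits was 0.0963 for Polr1a, 0.114 for Polr1e and 0.0998 for Rrn3. The log2 fold changes of these 5 genes stayed between −2.0 and −0.87 over all alternatives run.

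The windows before the start sites of 3 of the genes that fell are shown because these genes all fell and each has a single RefSeq window (GRCm38.p6) with 224 or 250 bases before the start free of annotated exons. Polr1c has 25 such bases in its window and Ubtf has 6 windows, and neither is printed. Capitals mark exact matches, on either strand, to CACGTG (an E-box), CCAAT or GGGCGG (a GC box). The sequences run 5′ to 3′ on the gene's strand, all on the plus strand, at chr16:13780449-13780698 for Rrn3, chr6:71908803-71909052 for Polr1a and chr4:45018359-45018582 for Polr1e.
Rrn3: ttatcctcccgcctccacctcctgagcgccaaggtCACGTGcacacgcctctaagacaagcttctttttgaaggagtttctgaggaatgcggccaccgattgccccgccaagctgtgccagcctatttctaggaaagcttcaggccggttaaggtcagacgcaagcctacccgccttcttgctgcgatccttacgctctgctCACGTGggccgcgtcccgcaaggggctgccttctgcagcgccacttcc
Polr1a: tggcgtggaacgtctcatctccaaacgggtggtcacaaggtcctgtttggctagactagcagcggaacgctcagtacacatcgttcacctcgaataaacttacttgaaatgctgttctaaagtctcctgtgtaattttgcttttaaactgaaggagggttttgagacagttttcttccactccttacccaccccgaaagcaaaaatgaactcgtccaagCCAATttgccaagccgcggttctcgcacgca
Polr1e: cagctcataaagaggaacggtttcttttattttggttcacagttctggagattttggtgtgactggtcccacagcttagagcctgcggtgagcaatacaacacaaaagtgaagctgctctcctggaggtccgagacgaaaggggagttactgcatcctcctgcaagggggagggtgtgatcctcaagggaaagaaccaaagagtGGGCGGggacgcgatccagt

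The Rrn3 window holds 2 copies of CACGTG, the E-box letters that MYC family and other basic helix-loop-helix factors can bind. Of 12485 windows (250 bases before to 50 after a start) of tested genes 1.03% held CACGTG at least 2 times and 9.71% at least once. Windows of all 10 genes were matched in the RefSeq set, 16 windows in all, of which 6 belong to Ubtf. CACGTG was in 1 of the 16 windows (1 gene), against 9.71% of the windows of tested genes. CCGGAAG, an ETS motif, was in 5 of 16 (5 genes), against 17.1%, CCAAT in 4 of 16 (3 genes), against 39.1%, GGGCGG in 11 of 16 (7 genes), against 59.3%, and TATAAA in 0 of 16, against 7.84%. Both strands were searched, and 2 different motifs may share bases. A match describes the letters only.

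Levels compared per length of merged exons (GENCODE M21) differed widely among the 10 genes. Per kilobase (kb), Rrn3 had 76.4 ± 12.2 CPM with arsenite and 155 ± 29.4 CPM in controls, and Polr1c had 52.1 ± 13.6 CPM with arsenite and 169 ± 72.9 CPM in controls (SD, n = 3 each). Polr1d, at 73.2 ± 60.9 CPM per kb with arsenite and 96.1 ± 35.2 CPM per kb in controls, completed the 3 highest in either group. The ranges of Polr1c, Rrn3 and Polr1d over the control libraries overlapped. In the middle lay Polr1e with 21.4 ± 2.29 CPM per kb with arsenite and 46.6 ± 13.1 in controls, Taf1b with 23.1 ± 3.14 with arsenite and 43.2 ± 6.41 in controls, and Taf1d with 20.2 ± 6.01 with arsenite and 28.4 ± 4.0 in controls (SD, n = 3 each). Ubtf had 7.73 ± 1.15 CPM per kb with arsenite and 17.9 ± 1.35 in controls. The catalytic chains were lower still, with Polr1b at 6.09 ± 0.757 CPM per kb with arsenite and 9.75 ± 1.97 in controls, and Polr1a at 2.16 ± 0.307 with arsenite and 4.97 ± 0.832 in controls. Lowest in both groups was Taf1c, at 0.603 ± 0.538 CPM per kb with arsenite and 1.6 ± 0.554 in controls. The order of the last 5, from Taf1d down to Taf1c, was the same in both groups. Merged exons of alternative transcripts can be longer than any single mRNA, and came to 11871 bases for Polr1a.

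Profiles over the 6 libraries were compared by the root mean square difference of log2 CPM after each gene was centred on its own mean. By this measure Polr1a and Ubtf were nearest to each other (0.19), followed by Polr1e beside Ubtf (0.22) and Rrn3 beside Polr1a (0.23). Taf1b lay nearest to Polr1e (0.24), Polr1b and Taf1d to each other (0.30), and Polr1c to Polr1e (0.33). Polr1d and Taf1c stood farther off, with nearest distances of 0.55 to Taf1d and 0.54 to Polr1c. Among all tested genes the 3 nearest to Polr1a were Atg16l1, Cbwd1 and Lclat1, at 0.08, 0.10 and 0.10. Ubtf ranked 58, Rrn3 116, Polr1e 578, Polr1b 596 and Taf1b 703 in that order. Far lower came Polr1c at 2071, Taf1d at 2119, Taf1c at 5183 and Polr1d at 6128.

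Libraries with the same number shared part of the profile. In replicate 2 of both groups Polr1c was at its highest and Polr1d at its lowest of that group. Polr1d in replicate 3 exceeded replicate 2 by 2.35 on the log2 scale with arsenite and by 0.94 in controls, while for Polr1c the same differences were −0.34 with arsenite and −0.97 in controls. Znrd1 and Polr2k, small subunits of the enzyme, had replicate 3 above replicate 2 by 3.83 and 2.67 with arsenite and by 1.04 and 1.01 in controls. Over 424 tested genes with under 1 kb of merged exons the median of this difference was 1.15 with arsenite and 0.58 in controls, in the class of Znrd1 (819 bases) and Polr2k (624 bases). By merged exons Polr1d (3043 bases) and Polr1c (2278 bases) belong to the class of 2 to 4 kb. Over the 3738 genes of that class the median difference was −0.18 with arsenite and −0.14 in controls. The part of transcript length in the profiles of Znrd1, Polr2k, Polr1d and Polr1c was not tested. Taken within same-numbered libraries, 9 of the 10 genes had the lower level with arsenite in all 3 pairs, the exception being Polr1d in number 3, as had 30% of all tested genes.

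**Figure D3:**
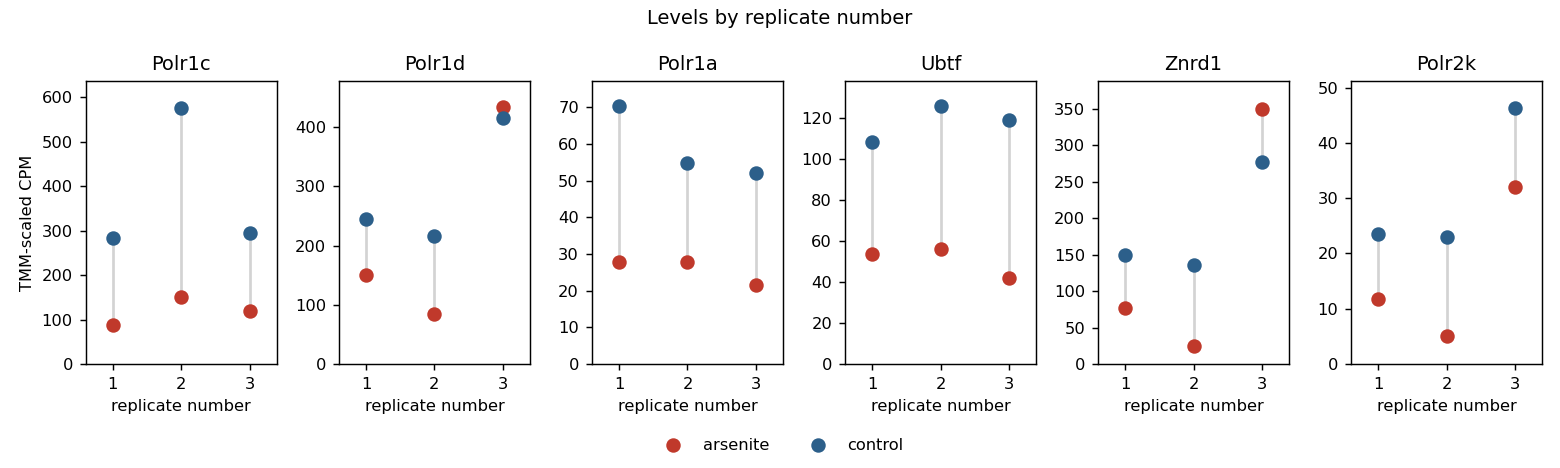
Levels in TMM-scaled CPM (y axes, from 0) by replicate number (x axes) for 4 of the 10 genes and for the small subunits Znrd1 and Polr2k; grey lines join the arsenite and control libraries with the same number. Polr1d, Znrd1 and Polr2k are highest in number 3 of each group, and Polr1c is highest in number 2.

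Other subunits of the polymerase and of SL1 had negative log2 fold changes as well (10 of 10, and 9 of 10 without arsenite replicate 2), though fewer passed. Over all tested genes 6016 of 12582 had a negative change, and 6688 of 13136 without arsenite replicate 2. The list of 10 was Znrd1, Twistnb, Cd3eap, Polr2e, Polr2f, Polr2h, Polr2k, Polr2l, Taf1a and Tbp. Of these 2 fell and 0 rose, beside 7.26% and 9.43% of all tested genes, with a median log2 fold change of −0.85. Polr2e and Polr2h encode subunits that all 3 nuclear polymerases share. Polr2e had 162, 179 and 132 CPM with arsenite and 307, 421 and 264 CPM in controls, and fell by 1.07 ± 0.29 log2 units (SE, adjusted p by edgeR = 0.0335). Polr2h had 124, 95.5 and 182 CPM with arsenite and 252, 280.2 and 298 CPM in controls, and fell by 1.05 ± 0.31 (SE, adjusted p by edgeR = 0.0413). Cd3eap, the partner of Polr1e, had a log2 fold change of −1.25 ± 0.39 (SE, adjusted p by edgeR = 0.0519), with groups that did not overlap. Tbp, common to the factors of all 3 polymerases, had the smallest change of the list at −0.22 ± 0.32 (SE), and exons of Pdcd2 on the opposite strand cover 19.0% of its exon length. With the replicate number as a block 4 of the list fell, beside 12.6% of all tested genes. Without any 1 control, or without arsenite replicate 1, edgeR called 0, beside 1.35% to 3.57% of all tested genes. At an unadjusted p under 0.05 those fits had 3 to 5 lower, beside 11.8% to 13.6%. Without arsenite replicates 2 and 3 edgeR called 1 and 3, beside 8.16% and 4.82%.

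The list of 19 regulators of the ribosomal RNA genes had 4 that fell and 0 that rose, beside 7.26% and 9.43% of all tested genes. Its median log2 fold change was −0.62. The change was negative for 14 of the 19, beside 6016 of the 12582 tested genes. Mybbp1a, a nucleolar partner of the polymerase, had 32.2, 41.6 and 39.3 CPM with arsenite and 109.7, 80.2 and 119 CPM in controls, and fell by 1.45 ± 0.31 (SE, adjusted p by edgeR = 0.0139). Nolc1, a nucleolar chaperone of small nucleolar RNPs, had 174, 168 and 139 CPM with arsenite and 385, 371 and 377 CPM in controls, and fell by 1.23 ± 0.26 (SE, adjusted p by edgeR = 0.0141). The RNA helicase gene Ddx21 fell by 1.19 ± 0.29 and Ttf1, which encodes the factor that ends transcription by this polymerase, by 1.17 ± 0.33 log2 units (SE, adjusted p by edgeR = 0.0225 and 0.0362), Ttf1 being named after its value was seen. Ubtfl1, a gene related to Ubtf and expressed in the early mouse embryo, averaged 164 ± 64.4 CPM with arsenite and 138 ± 62.2 CPM in controls (SD, n = 3 each), with overlapping groups and a log2 fold change of 0.26 ± 0.41 (SE, adjusted p by edgeR = 0.696). That change was −0.07 when control replicate 2 was left out and −0.10 when arsenite replicate 3 was. Dropping each control in order, 2, 3 and 0 of the list fell, beside 3.05%, 3.57% and 1.41% of all tested genes. Dropping each arsenite library in order, 0, 7 and 3 fell, beside 1.35%, 8.16% and 4.82%. The fits without control replicate 3 and arsenite replicate 1 had 5 and 4 lower at an unadjusted p under 0.05, beside 13.1% and 11.8%. With the block 6 fell, beside 12.6% of all tested genes.

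The products of the 6 t-UTP genes join the nascent ribosomal RNA and are needed for its synthesis in human cells. Of these genes 3 fell and 0 rose, beside 7.26% and 9.43% of all tested genes. Their median log2 fold change was −1.02. Wdr75 fell by 1.32 ± 0.31, Heatr1 by 1.15 ± 0.29 and Wdr43 by 0.97 ± 0.29 log2 units (SE, adjusted p by edgeR = 0.0197, 0.0241 and 0.0452). Without control replicates 1 or 3 or arsenite replicate 1 edgeR called 0 of the 6, beside 3.05%, 1.41% and 1.35% of all tested genes. At an unadjusted p under 0.05 each of these fits had 4 lower, beside 13.6%, 13.1% and 11.8%. Without control replicate 2, arsenite replicate 2 and arsenite replicate 3 edgeR called 3, 4 and 2, beside 3.57%, 8.16% and 4.82%.

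The other nuclear polymerases were counted for comparison, with no test between lists. Among 11 subunits found only in RNA polymerase III 7 fell and 0 rose, beside 7.26% and 9.43% of all tested genes. Their median log2 fold change was −1.30. Polr3a, the catalytic chain of RNA polymerase III, fell by 1.45 ± 0.30, Polr3b, the second chain, by 1.44 ± 0.35 and Crcp by 1.81 ± 0.49 log2 units (SE, adjusted p by edgeR = 0.0132, 0.0225 and 0.0323). Dropping each control in order, 2, 4 and 0 of the list were called, beside 3.05%, 3.57% and 1.41% of all tested genes. Dropping each arsenite library in order, the counts were 0, 6 and 1, beside 1.35%, 8.16% and 4.82%. The fits without control replicate 3 and arsenite replicate 1 each had 7 lower at an unadjusted p under 0.05, beside 13.1% and 11.8%. Of 7 subunits found only in RNA polymerase II 0 rose and 0 fell by edgeR, with a median of −0.20 and values from −0.85 for Polr2d to 1.70 for Polr2g. At an unadjusted p under 0.05 by edgeR 2 were higher and 1 lower, beside 18.2% and 15.8% of all tested genes. DESeq2 called 2 of these 7 higher and 1 lower, and limma-voom and the edgeR fit with the block each called 1 in either direction. Of the 12582 tested genes, DESeq2, limma-voom and the block fit called 1695, 1269 and 1682 higher and 1570, 1086 and 1586 lower. With control replicate 2 or arsenite replicate 2 left out edgeR called 1 of them higher, and so did the fit with no filter. Over all genes these fits called 623 of 13250, 930 of 13136 and 1271 of 18649 higher. Scaling by library size, size factors of the DESeq2 type and the minimum of 50 summed counts each called 1 of them lower, beside 8.5%, 7.99% and 7.82% of all tested genes.

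**Figure D4:**
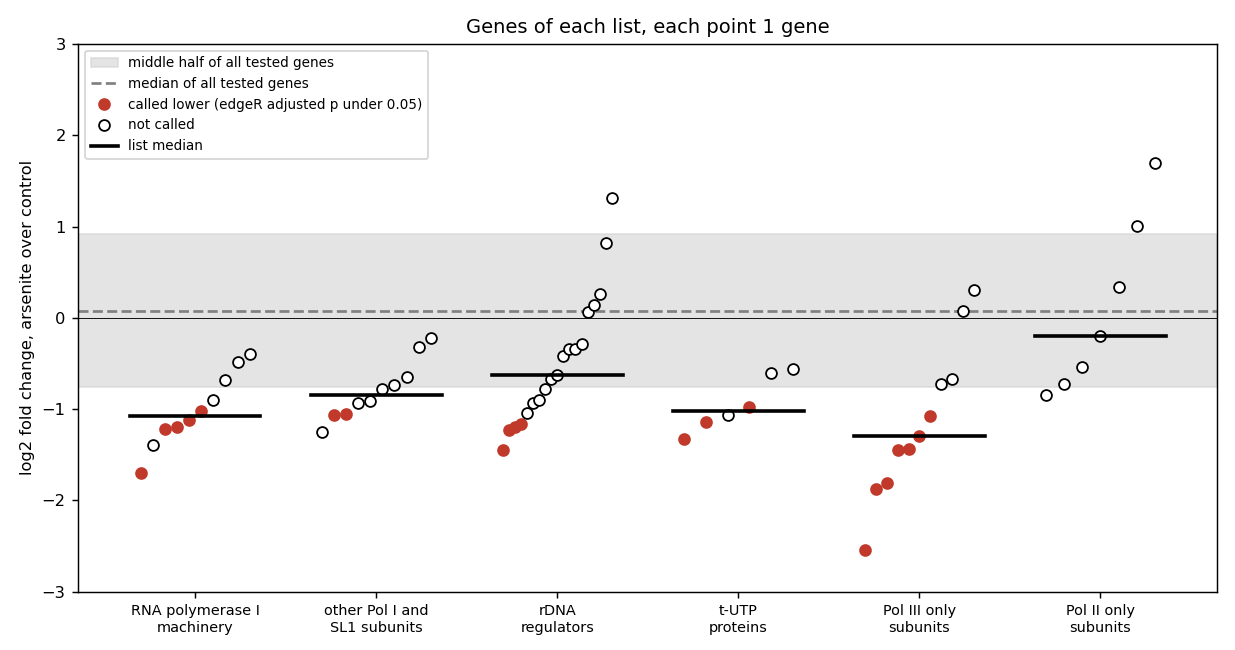
Log2 fold change of arsenite over control (y axis) for each tested gene of 6 lists (x axis), with the list medians as black lines; the grey band holds the central 50% of all tested genes and the dashed line their median of 0.07. Medians run from −1.30 for RNA polymerase III to −0.20 for RNA polymerase II, with −1.07 for the 10 genes described here.

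Rn45s, the ribosomal RNA precursor that RNA polymerase I makes, had 49209, 18021 and 42189 counts in arsenite replicates 1, 2 and 3 and 91648, 43679 and 110028 counts in control replicates 1, 2 and 3. As shares of all counts these were 0.592%, 0.215% and 0.544% with arsenite and 1.08%, 0.558% and 1.36% in controls. By share arsenite replicate 1 lay just above control replicate 2, so the groups overlapped. A two-sided exact permutation test of the shares gave p = 0.2, where 3 against 3 libraries cannot go below 0.1. In TMM-scaled CPM arsenite replicates 1 and 3, at 6258 and 6160, both lay above control replicate 2 at 4878. The log2 fold change was −1.02 ± 0.49 (SE, adjusted p by edgeR = 0.167), and with the replicate number as a block it was −1.06 ± 0.27 (SE, adjusted p by edgeR = 0.02). Libraries of poly(A) RNA need not hold Rn45s in proportion to its amount, and its synthesis and its decay cannot be told apart here.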

How the data were processed

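Poly(A) RNA of 3 arsenite and 3 control libraries of 2-cell embryos was analysed from whole read counts per gene symbol, which the authors deposited without normalization. Per the submitters' processing notes the build was mm10, and featureCounts 1.6.2, DESeq2 1.30.1, StringTie 2.1.4 and STAR are named with no role. Neither the annotation nor the strand setting is given in the sources used here. The cDNA went through PCR before library construction, per the labels' protocols, which name no molecular identifiers, so a floor of 3 counts (0.335 to 0.438 CPM) covers counting error only.

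Groups and replicate numbers came from the sample titles. Separate cultures are not named, so p-values speak of the spread among these 6 libraries alone, and that spread may be technical. No 2 libraries agreed within sampling noise (chi-square per degree of freedom at least 34.6). The 11 rows whose symbol had become a date (0.0432% to 0.0818% of a library's counts) were left out.

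The test was the quasi-likelihood F-test of edgeR 4.0.16 (two-sided, R 4.3.3) on counts with TMM factors, after filterByExpr at its defaults, with p adjusted by Benjamini-Hochberg over 12582 genes. The SE of a log2 fold change is its size over the square root of F. Alternatives were other scalings, filters, DESeq2 1.42.0, limma-voom 3.58.1, the replicate number as a block and leaving out each library. The edgeR, DESeq2 and limma-voom fits were tested on simulated counts, and the other steps were not. Deviations from group means correlated at 0.189, 0.221 and 0.178 for same-numbered libraries (log2 CPM, prior count 2) and at −0.164 to −0.0238 for others. The deviations of a group sum to 0 for each gene, so the negative values are not independent of the positive ones. What a number stands for is not stated, so the main test had no block. The replicate number entered a fit only as a block in an alternative.

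Positions and promoter windows are from RefSeq on GRCm38.p6, the assembly behind mm10, and exon lengths from GENCODE M21. The 10 genes and the other lists were chosen with earlier results of these data known. All 10 genes, Rn45s, Ubtfl1 and up to 3 called genes per list and direction, by smallest p, are named by rule, and others were chosen after their values were seen. No protein sequences were used here.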

Additional observations from a re-analysis of the deposited data

How the results depend on the processing

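Over the 14 alternatives run the log2 fold changes of the 10 genes kept their negative sign, with the median of the 10 1.1 to 1.26 below that of all tested genes. Scaling by library size moved the median of all genes to −0.05, against 0.07 with TMM, and turned the calls to 930 higher and 1070 lower. Genes called lower numbered 1570 with DESeq2 and 1586 with the replicate block, against 914. Leaving out a library gave 217 to 930 genes called higher and 180 to 1072 called lower, 0 to 4 of the 10 RNA polymerase I genes called lower, 0 to 3 of the other subunits called lower, where 4 were called with the replicate block, and differences of −0.766 to −0.367 percentage points in the Rn45s share. The change of Ubtfl1 turned to −0.07 without control replicate 2 and −0.10 without arsenite replicate 3, over a range of −0.10 to 0.46 with a library left out. Fits without a library hold fewer samples, and the cause of these shifts was not tested. Among single genes in the block fit, only Taf1b and Rn45s of those named by rule gained a call and none lost one. Low counts limit Taf1c, with 5 to 62 counts a library.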
